A study of Homo sapiens with 22 samples.

Results

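The SETD2 KO clone labelled KO2 was compared with the WT line it was derived from, 2 RNA-seq libraries of each, which are 4 of the 22 libraries of the series. They are the libraries that carry these labels. RPTEC are human renal proximal tubule epithelial cells immortalized with hTERT, the catalytic subunit of telomerase. The WT cells were unedited, and the KO2 cells were grown from 1 clone made with CRISPR/Cas9 and a guide RNA against SETD2. The study reported frameshifts on both alleles in its KO clones, from Sanger sequencing. All 4 libraries came from untreated cells in media with 2% serum, and hTERT selection with G418 was shared by both lines. KO2 is 1 clone, so loss of SETD2 and anything else particular to that clone cannot be told apart, and WT was not put through editing and cloning. Libraries labelled KO1, a second SETD2 KO clone in the same serum, are set beside KO2 where they bear on it, and the other 16 libraries only helped to estimate the spread. In a table of the study the clone names stand the other way round, with values headed KO1 that match the libraries labelled KO2, and KO2 here always means the label of the library.

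SETD2 is the enzyme that trimethylates lysine 36 of histone H3 along the bodies of transcribed genes, a mark known as H3K36me3 that is tied to splicing, DNA repair and the silencing of cryptic start sites within genes. Loss-of-function mutations of it are common in clear cell kidney cancer, a tumor thought to arise from the proximal tubule. In epithelial-to-mesenchymal transition (EMT), cells held together by cadherins, tight junctions and keratins lose them and take up the matrix, adhesion and motility genes of mesenchymal cells. The comparison asks which genes of this kind, and which others, differ between the KO2 clone and WT.

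The guide marks where the clone was cut, and it is shown with the bases around it. The guide matched SETD2 (ENSG00000181555) at 1 place, on the plus strand of chromosome 3 (hg38), at chr3:47122997-47123016. SETD2 lies on the minus strand, and the match is in the coding part of exon 3 of 21, an exon of 4367 bases. The reference sequence of the plus strand at chr3:47122977-47123039 is given 5′ to 3′, with the guide in capitals and followed by the PAM (cgg), the bases Cas9 needs beside its target.
SETD2 target: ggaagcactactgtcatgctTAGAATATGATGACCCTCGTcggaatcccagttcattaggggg

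SETD2 mRNA was lower in the KO2 clone but far from absent. It stood at 1852 and 2061 normalized counts in the WT libraries and 1049.8 and 1052 in the KO2 libraries, a log2 change of −0.89 (SE 0.07, adjusted p = 1.3e-07). Both KO2 libraries lay below both WT libraries, and the KO1 libraries were at 1046 and 1130.0. The gene-level value does not tell edited from unedited transcripts, and the change was under the fold threshold used here, though it reached −1.12 when the libraries were scaled to one total. Of the 13 tested genes that encode writers and erasers of H3K36 methylation, SETD2 included, 2 (15.4%) were called lower, beside 7.29% of all genes tested, and 0 higher. These were SETMAR, with 319.9 and 281 in WT and 123 and 128 in KO2 (log2 change −1.25, SE 0.24, adjusted p = 9.3e-04), and NSD2, which makes the dimethylated form, with 1229 and 1593 in WT and 686 and 615 in KO2 (log2 change −1.11, SE 0.15, adjusted p = 6.0e-05). The number called lower was 1 without WT replicate 2. NSD2 lost the call without WT replicate 2 (−0.92).

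Levels are normalized counts, obtained by inverting the transformed log2 values that were deposited. A gene was called where the limma adjusted p was under 0.05 and the log2 change over 1 in either direction, and a gene with both libraries of a group at 3 normalized counts or under is written as at the floor of that group, with a lower bound in place of a fold. Of the 14585 genes tested, 1315 (9.02%) were called higher and 1063 (7.29%) lower in KO2. Those shares are the background for every gene list below. With the libraries scaled to one total, 1076 were higher and 1519 lower, and the median over all genes moved from 0.00 to −0.20. On the deposited log2 scale, which compresses low and middle levels, 71 and 23 passed the same thresholds. The spread in the plot of change against level was widest among genes of low level, and called genes of both directions were found over the whole range.

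**Figure D1:**
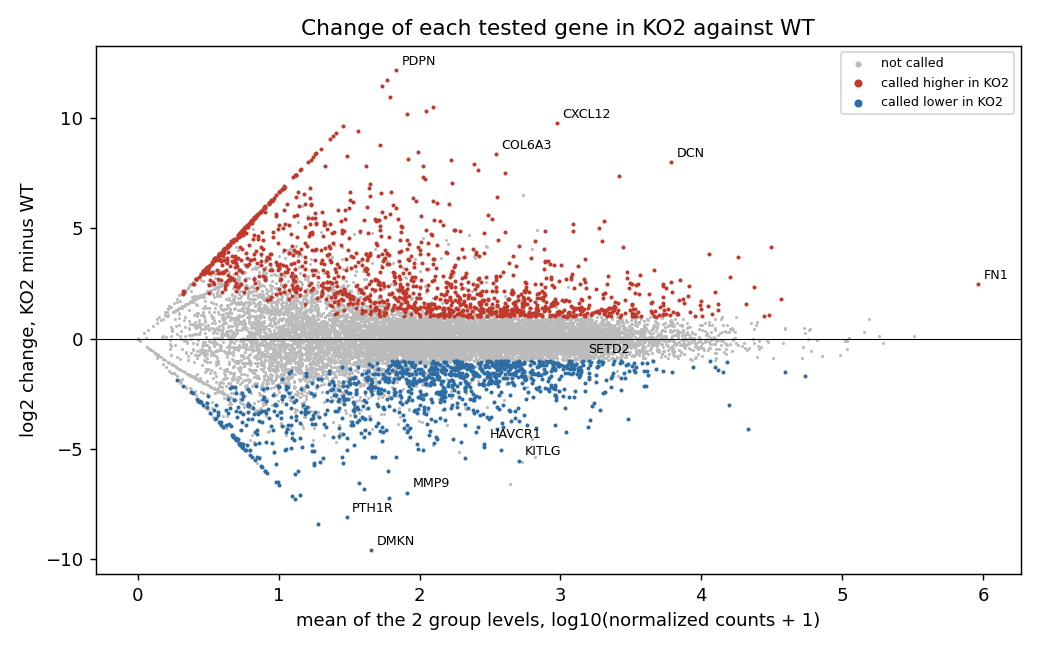
Each point is 1 of the 14585 genes tested, with the mean of the WT and KO2 levels as log10(normalized counts + 1) on the x axis and the log2 change of KO2 minus WT on the y axis, in red for the 1315 called higher, in blue for the 1063 called lower and in grey for the rest. The diagonal edges are genes at 0 in one of the groups, PDPN lies at 12.20 at the top and DMKN at −9.61 at the bottom, and SETD2 at −0.89 lies near the middle. The fitted value of a gene at 0 in a group depends on the count of 1 added before the log.

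Totals ran from 12164417 to 13001168 normalized counts in WT and from 14571709 to 14848117 in KO2, but after scaling they follow composition and do not measure depth. The spacing of low values put the depth at about 14800000 and 14000000 reads in WT and 13800000 and 12400000 in KO2, as a rough estimate, since 47.7 to 55.1% of low values lay within 0.1 of a whole step. Nothing in the labels says that the replicates were separate cultures. The p-values therefore measure the spread between libraries, pooled over the 11 groups of the series and not taken from WT and KO2 alone. The WT libraries differed more from each other than the KO2 libraries did. Of genes with a mean of at least 1000 normalized counts, 52 of 2314 (2.25%) were over 2-fold apart between the WT libraries and 6 of 2313 (0.259%) between the KO2 libraries. By this measure WT was the most uneven of the 11 groups, so the pooled spread can understate that of WT. FN1 alone took 5.37% of the counts of WT replicate 1 and 1.49% of those of WT replicate 2, against 13.2% and 13.4% in KO2. Calls that depended on 1 library are named beside the genes.

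The cells labelled as proximal tubule carried part of that identity in both lines. Their 13 markers summed to 4974 and 6733 normalized counts in WT and to 8290 and 8052 in KO2, and PAX8, a kidney transcription factor, was at 2322 and 3743 in WT and 5056 and 5096 in KO2. HNF4A, LRP2, SLC22A6 and SLC34A1, which define mature proximal tubule, were at the floor in both. The 15 fibroblast and pericyte markers summed to 12836 and 1237 in WT and to 105001 and 101317 in KO2, of which decorin (DCN) was most, while COL3A1 and PI16 were at the floor in both KO2 libraries. Of the 12 that were tested, 5 were called higher. The 15 leukocyte markers stayed low, at 222 and 126 in WT and 214 and 197 in KO2, with 0 of 4 tested called. Endothelial markers summed to 90.9 and 123 in WT and to 226 and 239.8 in KO2, where KDR, at 145 and 126, was most of the sum, with PECAM1 at the floor in both lines and CDH5 in KO2. Of the 7 tested, 2 were called higher, KDR and TIE1, the latter at 0 and 0.41 in WT and 3.33 and 24.1 in KO2. TIE1 lost the call without WT replicate 1 or WT replicate 2 or KO2 replicate 2. TIE1 lost the call with every library at the same total or under quantile normalization or with no filter on low values or with a pseudocount of 5 or with a length and GC trend removed. In bulk libraries such as these, fewer cells of a type and less RNA per cell cannot be told apart.

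Several of the genes with the largest rises were at the floor in WT. PDPN, which encodes the membrane glycoprotein podoplanin of lymphatic endothelium and podocytes, was at 0 and 0 in WT and 4942 and 4447 in KO2 (adjusted p = 1.3e-12, at least 1565-fold higher). TMPRSS2, a membrane serine protease, was at 0 and 0 in WT and 3542 and 3355 in KO2 (adjusted p = 1.1e-13, at least 1150-fold higher). IGF2, an imprinted growth factor of fetal tissue, was at 0 and 0.8 in WT and 2809 and 2597 in KO2 (adjusted p = 3.8e-11, at least 901-fold higher). WNT2, a secreted ligand of the Frizzled receptors, also started from 0, and reached 3191 and 2595 (adjusted p = 1.0e-11, at least 964-fold higher). In each of these genes neither WT library held more than 1 normalized count, and the KO2 libraries were close to each other.

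Another 3 were detectable in 1 WT library, at under 10 normalized counts. LRRC15, a membrane protein of activated fibroblasts, was at 6.01 and 0 in WT and 4019.5 and 3681 in KO2 (log2 change 10.50, SE 0.59, adjusted p = 4.4e-09). SV2B, a synaptic vesicle glycoprotein, was at 3.39 and 0 in WT and 2603 and 2389 in KO2 (log2 change 10.22). AQP9, a channel for water and glycerol, was at 3.61 and 0 in WT and 1004 and 925 in KO2 (log2 change 8.81). The groups lay far apart in these 3 as well. OR12D2, an olfactory receptor gene, rose from 0.84 and 0 to 938 and 937, at least 312-fold higher. TSPAN18, a tetraspanin, rose from 0 and 0 to 657 and 628, at least 214-fold higher. CH25H, which makes the oxysterol 25-hydroxycholesterol, rose from 0 and 0 to 659.7 and 521, at least 197-fold higher. IL1B and CXCL12, the remaining 2 of the 12 largest rises, are described with the cytokines. LRRC15 had a log2 change of 11.91 without WT replicate 1 and 9.10 with WT replicate 2 left out. SV2B had a log2 change of 11.28 without WT replicate 1 and 9.15 with WT replicate 2 left out. AQP9 had a log2 change of 9.91 without WT replicate 1 and 7.71 with WT replicate 2 left out.

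Several of the largest falls ended at the floor in KO2. DMKN, which encodes the secreted epidermal protein dermokine, was at 1174 and 1248 in WT and 0 and 1.39 in KO2 (adjusted p = 6.6e-09, at least 404-fold lower). PTH1R, the receptor through which parathyroid hormone acts on the proximal tubule, was at 409.7 and 532 in WT and 1.93 and 0 in KO2 (adjusted p = 1.5e-06, at least 157-fold lower). MAL, a proteolipid of apical membrane traffic, was at 101 and 202 in WT and 0 and 0 in KO2 (adjusted p = 9.5e-04, at least 50.5-fold lower). None of the KO2 libraries held more than 2 normalized counts of these 3 genes. MMP9, a gelatinase, was at 1126 and 722 in WT and 7.45 and 4.93 in KO2 (log2 change −7.00, SE 0.83, adjusted p = 1.3e-05). PHYHD1, a dioxygenase, was at 413 and 415 in WT and 1.56 and 4.28 in KO2 (log2 change −6.82), and JAM3, a junctional adhesion molecule, at 358 and 352 in WT and 3.76 and 2.02 in KO2 (log2 change −6.55). COL11A1, MUC1 and CDH3 are described with their groups. CGB8, one of several near-identical genes for a chorionic gonadotropin subunit, was at 339 and 55.6 in WT and 0 and 0 in KO2, and UGT1A6, which shares exons with other UGT1A enzymes, at 166 and 58.4 in WT and 1.03 and 0 in KO2, so that reads of neither can be assigned with certainty. DDX10, an RNA helicase, was at 181 and 57.2 in WT and 0.76 and 0.41 in KO2 (adjusted p = 0.0376, at least 39.6-fold lower). DDX10 lost the call whichever of the 4 libraries was left out. DDX10 lost the call with no filter on low values.

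**Figure D2:**
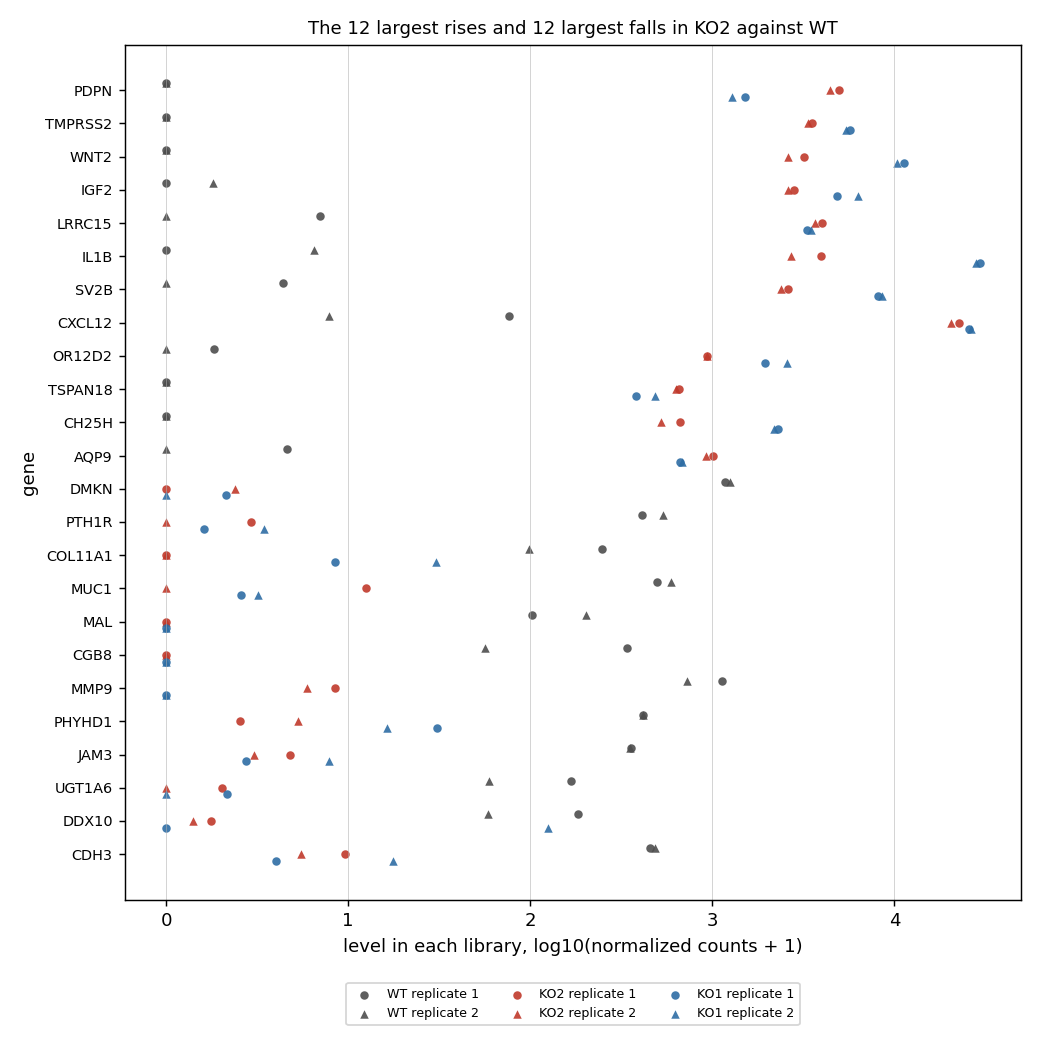
Each row is a gene and each point a library, at its level as log10(normalized counts + 1), with circles for replicate 1 and triangles for replicate 2, grey for WT, red for KO2 and blue for KO1. The 12 genes with the largest rise stand above the 12 with the largest fall, and the WT and KO2 points do not overlap in any of the genes, by the rule that chose them, while DDX10 has 1 KO1 library at 0 and the other at 124.

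Genes that went from the floor to 100 normalized counts or over in both libraries were far more often on in KO2 than off. In all, 39 genes, 34 of them protein-coding, were at the floor in both WT libraries and at 100 or over in both KO2 libraries, and 5 showed the reverse. Of the 39, 38 were called. Transcription factors of blood and endothelium were among them. FLI1, an ETS family factor, was at 0 and 0 in WT and 426 and 363 in KO2 (at least 131-fold higher), and IKZF1, the lymphoid zinc finger factor Ikaros, at 0 and 0 in WT and 218 and 349 in KO2 (at least 94.6-fold higher). The retinol carrier RBP4, with 0 and 0 in WT and 188 and 161 in KO2, was on. LCP1, an actin-bundling protein of leukocytes, was at 0 and 0 in WT and 134 and 218 in KO2, beside leukocyte markers that stayed low. The kinase DCLK3 with 0 and 0 in WT and 193 and 202 in KO2, the potassium channel KCND3 with 0 and 1.63 in WT and 522 and 507 in KO2, and the imprinted growth suppressor DIRAS3 with 2.45 and 0 in WT and 122 and 132 in KO2 also came on. DMBT1, at 0 and 1.88 in WT and 112 and 106 in KO2, was the 1 gene not called. Of the 5 that went off, DMKN, PTH1R, MAL and ANKRD2 have a symbol, and ANKRD2, a muscle ankyrin repeat protein, was at 119.7 and 150.1 in WT and 2 and 1.6 in KO2. IKZF1, RBP4, LCP1, DCLK3, KCND3 and DIRAS3 were picked from the 39 after their values were seen. In KO1, 25 of the 39 were also at 100 or over in both libraries, and 1 was at the floor in both. Of the 5 that went off, 4 were at the floor in both KO1 libraries.

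The shares of called members differed widely between gene lists, from chemokines and EMT transcription factors at the higher end to mitosis genes at the lower end. They are plotted for all 34 lists beside the shares over all genes. The lists were written with earlier results of these data known, so the shares are not independent evidence.

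**Figure D3:**
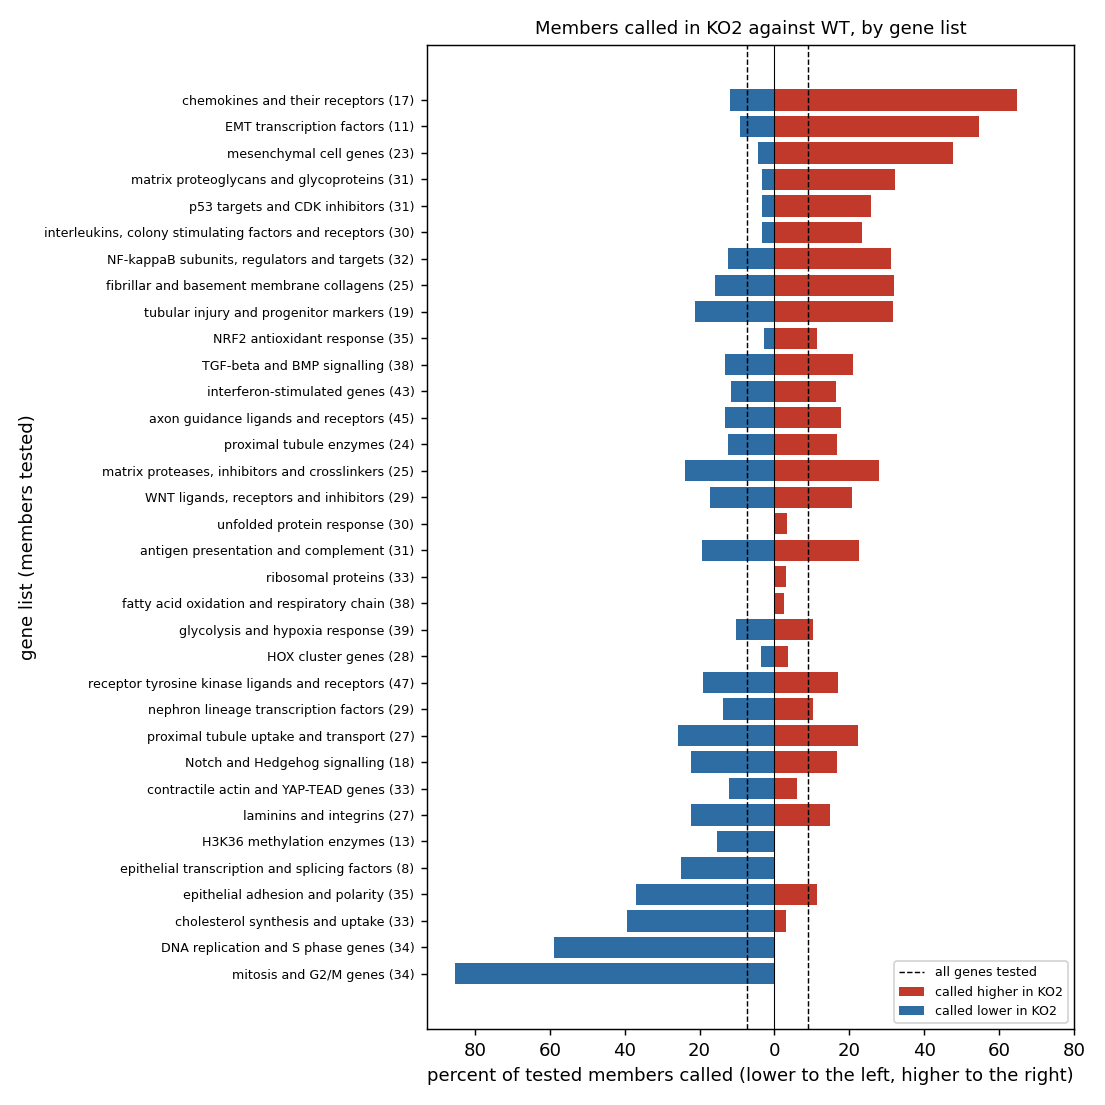
Each bar is a gene list, with the number of tested members in brackets, and the x axis is the percent of tested members called higher (red, to the right) and lower (blue, to the left) in KO2. The dashed lines are the shares over all tested genes, 9.02% higher and 7.29% lower; chemokines and their receptors reach 64.7% higher, and mitosis and G2/M genes 85.3% lower with 0 higher.

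Epithelial junction and polarity genes fell more often than they rose. Of 35 tested of 45 listed, 13 were called lower and 4 higher, or 37.1% and 11.4%, with a median log2 change of −0.95, or −0.79 with floor genes set to their bounds. MUC1, an apical mucin, was at 493 and 595 in WT and 11.5 and 0 in KO2 (log2 change −7.26, SE 0.88, adjusted p = 1.5e-05). CDH3, or P-cadherin, was at 456 and 484 in WT and 8.57 and 4.48 in KO2 (log2 change −6.02, SE 0.63, adjusted p = 3.5e-06). CDH1, or E-cadherin, was low in WT already, with 25.5 and 47.5 in WT and 0 and 0.78 in KO2 (adjusted p = 0.0379, at least 12.2-fold lower). Tight junction claudins went both ways, with CLDN1 among the genes that rose. CLDN16, a claudin of paracellular ion transport, was at 1022 and 1177 in WT and 68.1 and 107 in KO2 (log2 change −3.67), CLDN4 at 1561 and 1556 in WT and 499 and 396 in KO2 (log2 change −1.81) and CLDN14 at 91.5 and 44.5 in WT and 3.1 and 3.59 in KO2 (log2 change −3.90). EPCAM, the epithelial cell adhesion molecule, was at 3050.0 and 2764 in WT and 901 and 838 in KO2 (log2 change −1.74, SE 0.12, adjusted p = 2.8e-08). Among polarity proteins, LLGL2 was at 462 and 521 in WT and 87.3 and 47 in KO2 (log2 change −2.92) and PATJ at 2229 and 2629 in WT and 781 and 753 in KO2 (log2 change −1.66), and among desmosome proteins, DSP was at 1693 and 1239 in WT and 491 and 648 in KO2 (log2 change −1.36) and PKP2 at 462 and 566 in WT and 168 and 185 in KO2 (log2 change −1.53). TJP1, the tight junction scaffold ZO-1, was at 2195 and 2467 in WT and 1284 and 1399 in KO2 and under the fold threshold (log2 change −0.79, adjusted p = 4.0e-04), and it passed with every library at the same total (−1.02). KRT7, a keratin of simple epithelia, was at 787 and 78 in WT and 24.4 and 43.9 in KO2 (log2 change −2.88). CDH1 lost the call whichever of the 4 libraries was left out. MUC1 had a log2 change of −9.08 without KO2 replicate 1 and −5.44 with KO2 replicate 2 left out. KRT7 lost the call without WT replicate 1 (−1.23) or KO2 replicate 1 (−2.47) and had a log2 change of −4.54 without WT replicate 2. CDH1 lost the call with no filter on low values, and KRT7 with only the 4 libraries fitted.

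Fewer epithelial genes rose. DSC2, a desmosomal cadherin, was at 29.4 and 5.85 in WT and 191 and 205 in KO2 (log2 change 3.79). CDCP1 was at 17.4 and 27.9 in WT and 91.9 and 67 in KO2 and the tight junction claudin CLDN1 at 16.5 and 9.04 in WT and 30.9 and 44.9 in KO2. Members called higher numbered 2 without WT replicate 2 or with every library at the same total or with only the 4 libraries fitted and 1 without KO2 replicate 1. DSC2 had a log2 change of 4.86 without WT replicate 1 and 2.71 with WT replicate 2 left out. CDCP1 lost the call without WT replicate 1 (1.46) or KO2 replicate 1 (1.56). CLDN1 lost the call without WT replicate 2 (1.12) or KO2 replicate 1 (1.79) or KO2 replicate 2 (1.26). CDCP1 lost the call with only the 4 libraries fitted, and CLDN1 with only the 4 libraries fitted or with every library at the same total or with no filter on low values. Of 8 tested epithelial transcription and splicing factors, 2 fell and 0 rose. ESRP2, which directs epithelial splicing, was at 511 and 753 in WT and 55.2 and 58.7 in KO2 (log2 change −3.42, SE 0.33, adjusted p = 1.6e-06), and OVOL2, a repressor of mesenchymal genes, at 14.6 and 15.5 in WT and 0 and 0 in KO2 (adjusted p = 5.8e-04, at least 5.02-fold lower). Lower calls came to 1 without WT replicate 1. OVOL2 did not pass the filter on low values without WT replicate 1 or WT replicate 2 and was not tested there. It passed the filter only through the WT libraries, where it was high, so it could come out lower in KO2 but not higher. Of the epithelial genes, CLDN16, CLDN4, EPCAM, LLGL2, DSP, PKP2, KRT7, DSC2, CDCP1 and CLDN1 were picked after their values were seen.

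Transcription factors tied to EMT rose more often than they fell. Of 11 tested, 6 were called higher and 1 lower, with a median log2 change of 2.33, or 1.79 with floor genes set to their bounds. ZEB2, a zinc finger repressor of E-cadherin, was at 317 and 330.4 in WT and 2236 and 2280.1 in KO2 (log2 change 2.80, SE 0.12, adjusted p = 2.5e-10). TCF4, a basic helix-loop-helix factor, was at 60.0 and 60.1 in WT and 452 and 529.8 in KO2 (log2 change 3.01, SE 0.26, adjusted p = 5.3e-07). POU2F2, a POU family factor also known as OCT2, was at 39.3 and 237 in WT and 2066 and 1617 in KO2 (log2 change 4.22, SE 0.53, adjusted p = 2.3e-05), with the WT libraries far apart. PRRX1, a mesenchymal homeobox factor, was at 0 and 0 in WT and 34.8 and 28.4 in KO2 (adjusted p = 9.6e-05, at least 10.5-fold higher), and TWIST2 at 1.79 and 0.82 in WT and 9.74 and 11 in KO2 (at least 3.45-fold higher). The levels of PRRX1 and TWIST2 in KO2 were low. TWIST1, a mesenchymal marker of the study, was at 0 and 0 in WT and 0 and 0 in KO2 and was not tested. ZEB1 was at 607 and 575 in WT and 728 and 719 in KO2 (log2 change 0.29, adjusted p = 0.0214) and SNAI2, or Slug, at 26.8 and 23.5 in WT and 16.5 and 19.4 in KO2 (log2 change −0.47, adjusted p = 0.438), so neither was called. KLF8 was the 1 member called lower, with 259.6 and 283 in WT and 125 and 125 in KO2 (log2 change −1.11). TWIST2 and KLF8 were picked after their values were seen. FLI1, given above, was also among the 6 called higher. Several of these factors were chosen by the study on these samples, PRRX1 and POU2F2 among them. The list was written with earlier results of these data known, so neither the directions nor the counts are independent evidence. The count of lower members was 0 without WT replicate 2. POU2F2 had a log2 change of 2.94 without WT replicate 1 and 5.50 with WT replicate 2 left out. KLF8 lost the call without WT replicate 2 (−1.05). TWIST2 lost the call without WT replicate 2 or KO2 replicate 2.

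Mesenchymal cell genes rose in 11 of 23 tested members and fell in 1, with a median log2 change of 0.62. THY1, the surface antigen CD90 of fibroblasts and stromal cells, was at 14.3 and 15 in WT and 1136 and 1135 in KO2 (log2 change 6.18, SE 0.37, adjusted p = 8.2e-09). CDH11, the cadherin of mesenchyme, was at 0.94 and 0 in WT and 78.9 and 81.2 in KO2 (adjusted p = 3.4e-05, at least 26.7-fold higher). PDGFRA, a growth factor receptor of fibroblasts, was at 7.84 and 2.86 in WT and 67.9 and 57.2 in KO2 (log2 change 3.44, SE 0.63, adjusted p = 6.5e-04). ENG, or endoglin, was at 7.03 and 3.96 in WT and 62.5 and 69.3 in KO2 (log2 change 3.40), and CD44, the hyaluronan receptor, at 11504 and 12409 in WT and 38565 and 32523 in KO2 (log2 change 1.57, SE 0.08, adjusted p = 9.5e-10). ACTA2, smooth muscle actin, was at 309.5 and 308 in WT and 1140.0 and 1094 in KO2 (log2 change 1.85). VIM, the intermediate filament protein vimentin, was at 125588 and 100632 in WT and 102935 and 102488 in KO2 (log2 change −0.13, adjusted p = 0.205) and was not called. FN1, or fibronectin, was at 697564 and 180968 in WT and 1958267 and 1958182 in KO2 (log2 change 2.46, SE 0.37, adjusted p = 1.1e-04), with the WT libraries far apart. AXL, a receptor tyrosine kinase, was the member called lower, with 1751 and 4985 in WT and 1011 and 892 in KO2 (log2 change −1.64). The number called higher was 6 with only the 4 libraries fitted. Members called lower numbered 3 without WT replicate 2, 2 with every library at the same total and 0 with only the 4 libraries fitted. The fibroblast and pericyte markers moved with these genes, and all 5 of them that were called (DCN, LUM, THY1, PDGFRA and ACTA2) are members of this list or of the proteoglycan list. Their part in the result was not tested. PDGFRA had a log2 change of 4.04 without WT replicate 1 and 2.84 with WT replicate 2 left out. FN1 had a log2 change of 3.44 without WT replicate 1 and 1.49 with WT replicate 2 left out. AXL lost the call without WT replicate 2 (−0.88) and had a log2 change of −2.39 without WT replicate 1. FN1 lost the call with only the 4 libraries fitted or under quantile normalization, and AXL with only the 4 libraries fitted.

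Collagen genes moved in both directions, with chains of types V, VI and XVI among those higher and chains of types IV, XI and XVII among those lower. Of 25 tested, 8 were called higher and 4 lower, with a median log2 change of 0.73. COL6A3, the largest chain of type VI collagen, was at 18.4 and 18 in WT and 6441 and 6274 in KO2 (log2 change 8.37, SE 0.23, adjusted p = 2.2e-12), and its partners COL6A2 and COL6A1 at 2972 and 2089 in WT and 15706 and 14005 in KO2 (log2 change 2.57) and at 1659.8 and 1385 in WT and 3834 and 3663 in KO2 (log2 change 1.30). COL5A1, a chain of fibrillar type V collagen, was at 35.9 and 5.42 in WT and 3155 and 3027 in KO2 (log2 change 7.65, SE 0.56, adjusted p = 8.9e-08), and COL16A1 at 34.3 and 2.12 in WT and 861 and 747 in KO2 (log2 change 6.26, SE 0.72, adjusted p = 9.0e-06). COL11A1, a fibrillar chain of cartilage, fell from 246 and 97.3 to 0 and 0 (adjusted p = 0.00201, at least 57.2-fold lower). COL17A1, the hemidesmosome collagen, fell from 34 and 34.6 to 0 and 0.61 (adjusted p = 0.0154, at least 11.4-fold lower). COL4A1, a basement membrane chain, was at 5934 and 125 in WT and 74.5 and 54.6 in KO2 (log2 change −3.74, SE 1.09, adjusted p = 0.0177), and its WT libraries lay far apart. COL1A1 was also uneven in WT, with 11919 and 532 in WT and 3751 and 3520.5 in KO2 (adjusted p = 0.713), and was not called. COL6A2, COL6A1, COL17A1, COL4A1 and COL1A1 were picked after their values were seen. Lower calls came to 2 without WT replicate 1 or KO2 replicate 1. COL5A1 had a log2 change of 8.91 without WT replicate 1 and 6.39 with WT replicate 2 left out. COL16A1 had a log2 change of 8.01 without WT replicate 1 and 4.51 with WT replicate 2 left out. COL4A1 lost the call without WT replicate 1 (−0.96) or KO2 replicate 1 (−3.96) or KO2 replicate 2 (−3.52) and had a log2 change of −6.52 without WT replicate 2. COL17A1 lost the call without WT replicate 1 or WT replicate 2 or KO2 replicate 1. COL4A1 lost the call with only the 4 libraries fitted.

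Small leucine-rich proteoglycans and matrix glycoproteins rose in 10 of 31 tested members and fell in 1, with a median log2 change of 1.46, or 1.49 with floor genes set to their bounds. DCN, or decorin, which binds collagen fibrils, was at 477 and 289 in WT and 98373 and 94978 in KO2 (log2 change 8.02, SE 0.18, adjusted p = 2.1e-13), and was the largest contributor to the sum of fibroblast markers. LUM, or lumican, its relative, was at 8.68 and 0 in WT and 328 and 376 in KO2 (log2 change 6.82, SE 1.58, adjusted p = 0.00403). THBS2, a matricellular thrombospondin, was at 7.46 and 7.7 in WT and 491 and 387 in KO2 (log2 change 5.67, SE 0.22, adjusted p = 6.4e-11), and NID2, a basement membrane linker, at 12.2 and 10.6 in WT and 479 and 389.6 in KO2 (log2 change 5.13, SE 0.69, adjusted p = 4.0e-05). FBN1, the microfibril protein fibrillin, was at 29860.5 and 11747 in WT and 64813 and 64800.2 in KO2 (log2 change 1.79). THBS1, a related thrombospondin, moved the other way, with 86896 and 109422 in WT and 29749 and 30456 in KO2 (log2 change −1.70, SE 0.09, adjusted p = 3.5e-09). Both FBN1 and THBS1 were picked after their values were seen. The count of higher members was 6 without WT replicate 2. The number called lower was 2 without WT replicate 1 or WT replicate 2 and 3 with every library at the same total. LUM lost the call without WT replicate 2 (5.19) and had a log2 change of 8.46 without WT replicate 1. FBN1 had a log2 change of 2.46 without WT replicate 1 and 1.12 with WT replicate 2 left out. FBN1 lost the call with only the 4 libraries fitted.

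Laminins and integrins went both ways. In all, 4 of 27 tested were called higher and 6 lower. LAMA3, a laminin chain of the epithelial basement membrane, was at 10127 and 10657 in WT and 3521 and 3829 in KO2 (log2 change −1.50, SE 0.09, adjusted p = 6.7e-09). LAMB3, another laminin chain, was just past the fold threshold in the other direction, with 902 and 656 in WT and 1866 and 1275 in KO2. ITGB4 and ITGA6 form the integrin of hemidesmosomes, which binds laminin. ITGB4 was at 3812 and 5723 in WT and 199.5 and 299.6 in KO2 (log2 change −4.25, SE 0.31, adjusted p = 8.8e-08) and ITGA6 at 1125 and 1170.0 in WT and 331 and 342 in KO2 (log2 change −1.77, SE 0.16, adjusted p = 1.0e-06). ITGA1, a collagen receptor chain, was at 224 and 129 in WT and 2350.4 and 1979 in KO2 (log2 change 3.66, SE 0.25, adjusted p = 4.7e-08), and ITGA11, another, at 72.6 and 1.99 in WT and 163 and 196 in KO2 (log2 change 3.60, SE 1.06, adjusted p = 0.0181). Members called higher numbered 2 without WT replicate 2 or KO2 replicate 1 and 1 with only the 4 libraries fitted. LAMA3 and LAMB3 were picked after their values were seen. LAMB3 lost the call without WT replicate 2 (0.77) or KO2 replicate 1 (0.73). ITGA11 lost the call without WT replicate 2 (1.29) or KO2 replicate 1 (3.73) or KO2 replicate 2 (3.47) and had a log2 change of 5.91 without WT replicate 1. LAMB3 lost the call with only the 4 libraries fitted or with every library at the same total or under quantile normalization or with a pseudocount of 5, and ITGA11 with only the 4 libraries fitted.

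Among matrix proteases, their inhibitors and crosslinkers, 7 of 25 tested rose and 6 fell. Metalloproteases split, with MMP2, a gelatinase of mesenchymal cells, at 3064 and 599 in WT and 11327 and 11856 in KO2 (log2 change 3.10, SE 0.45, adjusted p = 9.0e-05), and MMP17 at 2.18 and 2.84 in WT and 63 and 42.5 in KO2 (at least 17.6-fold higher), against the falls of MMP9, given above, and of MMP7, an epithelial matrilysin, at 183 and 182 in WT and 33.1 and 24.6 in KO2 (log2 change −2.64). The inhibitors TIMP2, at 5714 and 6473 in WT and 26412 and 25637 in KO2 (log2 change 2.10, SE 0.06, adjusted p = 3.2e-12), and TIMP3, at 24.3 and 2.66 in WT and 131 and 137 in KO2 (log2 change 3.81), rose. The plasminogen system was also divided. PLAT, the tissue activator, was at 300.4 and 395 in WT and 1809.7 and 1686 in KO2 (log2 change 2.34), whereas PLAU, the urokinase activator, was at 173 and 509 in WT and 16.5 and 94.3 in KO2 (log2 change −2.87). LOX, which crosslinks collagen, was at 563 and 454 in WT and 1765 and 1529 in KO2 (log2 change 1.70). MMP7, TIMP2, PLAT, PLAU and LOX were picked after their values were seen. MMP2 had a log2 change of 4.27 without WT replicate 1 and 1.92 with WT replicate 2 left out. TIMP3 had a log2 change of 5.20 without WT replicate 1 and 2.41 with WT replicate 2 left out. PLAU lost the call without WT replicate 2 (−2.09) or KO2 replicate 1 (−1.64) and had a log2 change of −3.64 without WT replicate 1 and −4.09 with KO2 replicate 2 left out. MMP2, TIMP3 and PLAU lost their calls with only the 4 libraries fitted.

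Chemokines had the largest share of members called higher of the 34 lists. Of 17 tested of 29 listed, 11 (64.7%) were called higher and 2 (11.8%) lower, beside 9.02% and 7.29% of all genes, with a median log2 change of 3.50, or 3.03 with floor genes set to their bounds. CXCL12, which guides stem cells and leukocytes through CXCR4, was at 74.9 and 6.88 in WT and 22547 and 20462 in KO2 (log2 change 9.78, SE 0.62, adjusted p = 1.7e-08). CXCL8, the neutrophil attractant interleukin-8, was at 33.9 and 36.2 in WT and 1133 and 976 in KO2 (log2 change 4.87, SE 0.16, adjusted p = 8.9e-12). CXCL1, of the same family and present in WT already, was at 5689 and 4502 in WT and 73071 and 58364 in KO2 (log2 change 3.69, SE 0.11, adjusted p = 3.9e-12). CCL20, which attracts dendritic cells and lymphocytes, was at 7.71 and 10.3 in WT and 2757 and 2742 in KO2 (log2 change 8.11, SE 0.22, adjusted p = 1.9e-12). The neutrophil attractants CXCL6 and CXCL3 also rose, with 32.3 and 64.3 in WT and 918 and 689.7 in KO2 (log2 change 4.09) and 231 and 226 in WT and 3024 and 2239 in KO2 (log2 change 3.50), as did the monocyte attractant CCL2, with 1456 and 681 in WT and 8737 and 7623 in KO2 (log2 change 3.03). CCL3 came from 0 and 0 to 46.1 and 23.7 (adjusted p = 2.3e-04, at least 11.6-fold higher), though near-identical copies of its gene make its reads uncertain. The decoy receptor ACKR3 was at 2.76 and 0 in WT and 54.5 and 26.9 in KO2 (at least 13.6-fold higher). The epithelial chemokines CXCL16, with 125 and 104 in WT and 25.8 and 0 in KO2 (log2 change −4.47), and CCL28, with 13.8 and 14.4 in WT and 0 and 2.81 in KO2 (at least 4.7-fold lower), were the members called lower. CXCL1, CXCL6, CXCL3, CCL2, ACKR3, CXCL16 and CCL28 were picked after their values were seen. Lower calls came to 1 without WT replicate 1 or WT replicate 2 or KO2 replicate 1 or KO2 replicate 2 and 0 with only the 4 libraries fitted. CXCL12 had a log2 change of 11.41 without WT replicate 1 and 8.14 with WT replicate 2 left out. CXCL16 lost the call without WT replicate 1 (−4.34) or WT replicate 2 (−4.60) or KO2 replicate 2 (−2.10) and had a log2 change of −6.84 without KO2 replicate 1. CCL28 lost the call without KO2 replicate 1. CXCL16 and CCL28 lost their calls with only the 4 libraries fitted.

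Interleukin genes rose in a smaller share, 7 of 30 tested, and 1 fell. The median log2 change of the list was −0.50, below 0 although more members rose than fell. Members of the interleukin-1 family were among those that rose. IL1B was at 0 and 5.5 in WT and 3949 and 2701 in KO2 (log2 change 10.32, SE 0.57, adjusted p = 4.4e-09), IL1A at 45.8 and 29.8 in WT and 3522 and 2979.9 in KO2 (log2 change 6.42, SE 0.19, adjusted p = 2.9e-12), and IL33, the alarmin, at 2 and 0 in WT and 21.1 and 17.6 in KO2 (at least 6.44-fold higher). The interleukin-1 receptors moved apart, with the signalling receptor IL1R1 at 60.2 and 55.5 in WT and 944 and 998 in KO2 (log2 change 4.05) and the decoy IL1R2 at 71 and 88.7 in WT and 0 and 26.3 in KO2 (log2 change −3.94). CSF3, the granulocyte growth factor, went from 0 and 0 to 153 and 86 (adjusted p = 2.8e-07, at least 39.8-fold higher). IL24 was at 7.29 and 4.64 in WT and 1829 and 1339.8 in KO2 (log2 change 7.84, SE 0.59, adjusted p = 1.2e-07), and IL6, the acute phase cytokine, at 964 and 599 in WT and 3037 and 2193 in KO2 (log2 change 1.76, SE 0.21, adjusted p = 1.1e-05). IL7, a lymphoid growth factor, was at 18.5 and 24.8 in WT and 19 and 10.6 in KO2 (adjusted p = 0.792) and was not called. IL33, IL1R1 and IL1R2 were picked after their values were seen. The count of lower members was 2 without WT replicate 2 or KO2 replicate 2 and 0 with only the 4 libraries fitted. IL1B had a log2 change of 8.97 without WT replicate 1 and 11.67 with WT replicate 2 left out. IL1R2 lost the call without KO2 replicate 1 (−1.56) and had a log2 change of −6.33 without KO2 replicate 2. IL33 lost the call without WT replicate 2. IL1R2 lost the call with only the 4 libraries fitted.

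NF-κB is the transcription factor family that drives many of these cytokines and its own inhibitors. Of 32 tested subunits, regulators and targets, 10 were called higher and 4 lower, with a median log2 change of 0.40. The feedback inhibitors NFKBIA, with 3260.0 and 2791 in WT and 7063 and 6305 in KO2 (log2 change 1.15, SE 0.08, adjusted p = 4.7e-08), and TNFAIP3, with 1693 and 1061 in WT and 3872 and 3075 in KO2 (log2 change 1.36, SE 0.21, adjusted p = 1.5e-04), were among the higher ones, and so was TNIP3, with 0 and 0 in WT and 39.8 and 41.8 in KO2 (at least 13.6-fold higher). C3, the central complement component, was at 2747 and 3286 in WT and 44554 and 41316 in KO2 (log2 change 3.84, SE 0.13, adjusted p = 1.7e-11). The tumor necrosis factor family ligand LTB, with 35.5 and 23.9 in WT and 0 and 1.23 in KO2 (adjusted p = 3.0e-05, at least 9.89-fold lower), and the receptor TNFRSF9, with 790.4 and 998 in WT and 97.7 and 64 in KO2 (log2 change −3.47), fell. NFKBIA, TNFAIP3 and TNFRSF9 were picked after their values were seen. The number called lower was 2 without WT replicate 1 or KO2 replicate 1. NFKBIA lost the call with every library at the same total or under quantile normalization.

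The promoters of the genes called higher in these 3 lists were searched for a short form of the κB element, to show what letters stand before their starts. The motif was GGNNTTTCC on either strand (GGAAANNCC), in the 250 bases before each RefSeq start (GRCh38.p14). Of 26 such genes 20 had a RefSeq window, and 12 of the 20 held the motif, beside 853 of 10430 tested genes with a window (8.18%) and 5.48% of all 35116 windows. Of 32 members with a window that were not called, 12 held it. The motif and the 4 genes shown were chosen after the values were seen, and a match describes letters and not binding. Windows of 4 of these genes are given 5′ to 3′ on the strand of the gene, with each match in capitals. They lie at chr4:73740319-73740568 (+ strand), chr4:73869143-73869392 (+ strand), chr7:22726950-22727199 (+ strand) and chr2:227813592-227813841 (+ strand), and CXCL1 holds 2 matches, at −78 and −53 from the start.
CXCL8: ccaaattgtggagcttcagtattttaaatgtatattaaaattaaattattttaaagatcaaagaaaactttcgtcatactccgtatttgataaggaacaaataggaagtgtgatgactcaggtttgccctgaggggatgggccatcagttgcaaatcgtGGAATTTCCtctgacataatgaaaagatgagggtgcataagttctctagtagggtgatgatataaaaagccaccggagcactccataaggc
CXCL1: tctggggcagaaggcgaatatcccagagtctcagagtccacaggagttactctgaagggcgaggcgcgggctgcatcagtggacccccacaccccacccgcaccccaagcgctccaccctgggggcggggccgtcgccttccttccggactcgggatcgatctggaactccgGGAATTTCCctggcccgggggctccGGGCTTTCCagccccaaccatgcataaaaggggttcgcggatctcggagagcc
IL6: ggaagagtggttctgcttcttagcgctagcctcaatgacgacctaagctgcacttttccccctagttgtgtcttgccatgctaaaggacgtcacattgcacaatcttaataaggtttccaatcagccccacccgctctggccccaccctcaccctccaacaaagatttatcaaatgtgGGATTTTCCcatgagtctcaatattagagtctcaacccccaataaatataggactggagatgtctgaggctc
CCL20: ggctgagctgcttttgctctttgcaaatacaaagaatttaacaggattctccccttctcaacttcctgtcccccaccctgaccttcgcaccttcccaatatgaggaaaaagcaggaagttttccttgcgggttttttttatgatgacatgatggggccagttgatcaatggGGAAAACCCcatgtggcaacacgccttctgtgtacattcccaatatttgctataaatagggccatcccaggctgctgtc

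Antigen presentation and complement genes went both ways, with 7 of 31 tested called higher and 6 lower. CD55, an inhibitor of complement on the cell surface, was at 960.1 and 837 in WT and 5486 and 4538 in KO2 (log2 change 2.48, SE 0.11, adjusted p = 2.3e-10). SERPING1, the inhibitor of the C1 protease, moved the other way, with 57.1 and 64.8 in WT and 0 and 2.89 in KO2 (adjusted p = 5.8e-04, at least 20.3-fold lower), and so did CFI, which cleaves C3b, with 1836 and 1764 in WT and 332 and 417 in KO2 (log2 change −2.27). C1QTNF1, a secreted relative of C1q, was at 22.7 and 39.9 in WT and 989.8 and 909.8 in KO2 (log2 change 4.93, SE 0.39, adjusted p = 1.8e-07). CD74, the invariant chain of class II antigen presentation, was at 1215 and 981 in WT and 47.2 and 66 in KO2 (log2 change −4.26, SE 0.27, adjusted p = 1.7e-08), while B2M, the light chain of class I, was at 28027 and 12412 in WT and 38434 and 38115 in KO2 (log2 change 1.04) with uneven WT libraries. CD55, CFI and B2M were picked after their values were seen. B2M lost the call without WT replicate 2 (0.45). B2M lost the call with only the 4 libraries fitted or with every library at the same total or under quantile normalization.

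Interferon-stimulated genes showed no common direction in this clone. Of 43 tested, 7 were called higher, 5 lower and 31 neither, with a median log2 change of 0.44. IFI27 was at 15.8 and 8.3 in WT and 535 and 321 in KO2 (log2 change 5.06, SE 0.60, adjusted p = 1.3e-05), OAS2, a sensor of double-stranded RNA, at 16.5 and 18.3 in WT and 252 and 304 in KO2 (log2 change 3.92, SE 0.51, adjusted p = 3.1e-05), and PLSCR1, a scramblase, at 285 and 246 in WT and 1175 and 1153 in KO2 (log2 change 2.13, SE 0.29, adjusted p = 5.1e-05). XAF1, a pro-apoptotic gene, moved down, with 31.8 and 26.6 in WT and 5.17 and 0 in KO2 (log2 change −3.60, SE 1.02, adjusted p = 0.015), as did IRF1, the transcription factor, with 986 and 1106 in WT and 534 and 420.4 in KO2 (log2 change −1.14), and IFIT2, with 389 and 426 in WT and 175 and 173 in KO2 (log2 change −1.22). IRF1 and IFIT2 were picked after their values were seen. Members called higher numbered 4 with every library at the same total. Lower calls came to 3 without WT replicate 2 or KO2 replicate 2. XAF1 lost the call without WT replicate 1 (−3.48) or WT replicate 2 (−3.72) or KO2 replicate 2 (−2.29) and had a log2 change of −4.91 without KO2 replicate 1. IRF1 lost the call without KO2 replicate 2 (−0.97). IFIT2 lost the call without WT replicate 2 (−1.16). XAF1 lost the call with only the 4 libraries fitted.

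WNT genes were divided between ligands and receptors of different kinds. Of 29 tested, 6 were called higher and 5 lower, with a median log2 change of −0.03. Besides WNT2, the noncanonical ligand WNT5A rose, with 969 and 398 in WT and 11621 and 10990.1 in KO2 (log2 change 4.18, SE 0.27, adjusted p = 2.4e-08), while the epithelial ligand WNT7A fell, with 810.4 and 812 in WT and 80.8 and 80.5 in KO2 (log2 change −3.31, SE 0.25, adjusted p = 1.3e-07). LGR5, the R-spondin receptor of stem cells, came on at a low level, with 0 and 0 in WT and 45.9 and 48.6 in KO2 (adjusted p = 0.00303, at least 15.8-fold higher). Of the targets that feed back on the pathway, AXIN2 was at 52.9 and 86.2 in WT and 204 and 208 in KO2 (log2 change 1.59) and RNF43, which removes Frizzled receptors, at 146 and 194 in WT and 16.5 and 18 in KO2 (log2 change −3.21, SE 0.50, adjusted p = 1.6e-04). FZD1 rose to 681 and 621 from 226 and 304 and FZD7 fell to 816 and 842 from 1626 and 1729. DKK1, a secreted inhibitor, was at 1.93 and 34.9 in WT and 0 and 0 in KO2 (adjusted p = 0.0414, at least 6.13-fold lower). WNT7A, AXIN2, RNF43, FZD1 and FZD7 were picked after their values were seen. The count of lower members was 3 without WT replicate 2 or KO2 replicate 1 or KO2 replicate 2. WNT5A had a log2 change of 4.83 without WT replicate 1 and 3.54 with WT replicate 2 left out. AXIN2 lost the call without WT replicate 1 (1.25). FZD7 lost the call without WT replicate 2 (−0.97) or KO2 replicate 1 (−0.99). DKK1 lost the call without WT replicate 2 or KO2 replicate 1 or KO2 replicate 2. DKK1 lost the call with no filter on low values or with a pseudocount of 5.

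Ligands of receptor tyrosine kinases moved in both directions. Of 47 tested ligands and receptors, 8 rose and 9 fell. Besides IGF2, the ligand GDNF, which guides the ureteric bud, was at 4.52 and 0 in WT and 568 and 498 in KO2 (log2 change 7.82, SE 1.18, adjusted p = 1.2e-04). Against these, KITLG, or stem cell factor, was at 3366 and 3594 in WT and 71.2 and 75.2 in KO2 (log2 change −5.55, SE 0.18, adjusted p = 1.2e-11), PDGFB at 7972 and 4002 in WT and 403 and 483 in KO2 (log2 change −3.68, SE 0.30, adjusted p = 2.7e-07) and NRG1, a ligand of ERBB receptors, at 2989.8 and 3009 in WT and 867 and 631 in KO2 (log2 change −2.02, SE 0.14, adjusted p = 3.8e-08). The receptor of KITLG, KIT, rose from 0 and 0 to 53.5 and 68.8 (adjusted p = 4.4e-06, at least 20.4-fold higher) as its ligand fell. KDR, a receptor for vascular endothelial growth factor, was at 0.77 and 0 in WT and 145 and 126 in KO2 (adjusted p = 1.5e-05, at least 45.3-fold higher), and is itself 1 of the endothelial markers. FGFR2, a receptor with epithelial and mesenchymal splice forms, was at 401 and 532 in WT and 29.1 and 38.9 in KO2 (log2 change −3.74) and FGFR1 at 2098 and 2775 in WT and 4981 and 4798 in KO2 (log2 change 1.02). MET, the receptor of hepatocyte growth factor, was at 6435 and 7087 in WT and 19153 and 18045 in KO2 (log2 change 1.46, SE 0.06, adjusted p = 1.7e-10). KITLG, PDGFB, NRG1, FGFR2, FGFR1 and MET were picked after their values were seen. GDNF had a log2 change of 9.06 without WT replicate 1 and 6.59 with WT replicate 2 left out. FGFR1 lost the call without WT replicate 1 (0.82) or KO2 replicate 1 (0.99). FGFR1 lost the call with every library at the same total or under quantile normalization or with a length and GC trend removed.

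In the TGF-β and BMP list, the secreted BMP inhibitors NOG, GREM1, CHRD and CHRDL1 rose and the BMP targets ID1 and ID3 fell. Of 38 tested, 8 were called higher and 5 lower, with a median log2 change of 0.07. The inhibitors NOG, or noggin, with 36.6 and 23.3 in WT and 603 and 538 in KO2 (log2 change 4.24, SE 0.23, adjusted p = 4.1e-09), GREM1, or gremlin, with 0 and 55.2 in WT and 1109.5 and 887 in KO2 (log2 change 7.05, SE 1.68, adjusted p = 0.005), and CHRDL1, with 15.7 and 28.6 in WT and 96.6 and 105 in KO2 (log2 change 2.19), were higher. The ligand BMP4 was higher too, with 114 and 160.4 in WT and 1058 and 1183 in KO2 (log2 change 3.04). ID1, a direct target of BMP signalling, was at 73.8 and 96.7 in WT and 3.07 and 5.94 in KO2 (log2 change −4.01, SE 0.44, adjusted p = 5.4e-06), ID3, another, at 18.2 and 32.2 in WT and 3.76 and 1.05 in KO2 (log2 change −3.01), and the receptor BMPR1B at 227 and 158 in WT and 9.33 and 13.4 in KO2 (log2 change −3.96). GDF15, a stress-induced member of the ligand family, was at 401 and 446 in WT and 10408 and 7948 in KO2 (log2 change 4.42, SE 0.13, adjusted p = 3.4e-12). The TGF-β target PMEPA1, with 2656 and 1513 in WT and 1109 and 814 in KO2 (log2 change −1.08), was lower. The number called higher was 5 without KO2 replicate 1. Members called lower numbered 8 with every library at the same total and 3 with only the 4 libraries fitted. CHRD was at 0 and 0 in WT and 4.65 and 2.01 in KO2 (at least 1.11-fold higher). CHRD, CHRDL1, BMP4, ID3, BMPR1B and PMEPA1 were picked after their values were seen. BMP4 lost the call whichever of the 4 libraries was left out. GREM1 lost the call without WT replicate 1 (4.14) and had a log2 change of 9.96 without WT replicate 2. ID3 lost the call without WT replicate 2 (−2.62) or KO2 replicate 2 (−2.41) and had a log2 change of −3.62 without KO2 replicate 1. PMEPA1 lost the call without WT replicate 1 (−0.67) or KO2 replicate 2 (−0.85). CHRD lost the call without KO2 replicate 1. GREM1, ID3 and PMEPA1 lost their calls with only the 4 libraries fitted, CHRD with a pseudocount of 5, and BMP4 with a pseudocount of 0.5.

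Of 18 tested Notch and Hedgehog genes, 3 rose and 4 fell. JAG1, a Notch ligand, was at 9613 and 3668 in WT and 336 and 404 in KO2 (log2 change −4.01, SE 0.29, adjusted p = 7.2e-08). The Hedgehog receptor and target PTCH1 was at 46.7 and 93.2 in WT and 541 and 254 in KO2 (log2 change 2.47) and the ligand SHH at 4.21 and 8.21 in WT and 44 and 29.7 in KO2 (log2 change 2.42). The Notch target HES4, with 330.3 and 302 in WT and 78 and 95 in KO2 (log2 change −1.86), fell. The Notch target HES1 is counted among the 4 as well, but at 2.63 and 2.63 in WT and 0 and 0 in KO2 it was under the floor in both lines. Higher calls came to 1 without KO2 replicate 1 or with only the 4 libraries fitted. The count of lower members was 2 with only the 4 libraries fitted. Among 45 tested axon guidance genes, 8 rose and 6 fell. Without KO2 replicate 1 the balance turned, with 5 higher and 7 lower, and with only the 4 libraries fitted 5 were higher and 5 lower. ROBO1, the receptor of SLIT proteins, was at 4.5 and 1.62 in WT and 106 and 135 in KO2 (log2 change 4.99, SE 1.06, adjusted p = 0.00212), and the semaphorin coreceptors NRP2 and NRP1 at 5372 and 5656 in WT and 18716 and 16939.7 in KO2 (log2 change 1.69) and 492 and 428 in WT and 1345 and 1232 in KO2 (log2 change 1.49). Semaphorins went both ways, with SEMA3C higher at 105 and 388 in WT and 943 and 543 in KO2 (log2 change 1.82) and lower values for SEMA6A at 1103 and 2094 in WT and 88.7 and 100 in KO2 (log2 change −4.00, SE 0.44, adjusted p = 6.0e-06), SEMA7A at 3256 and 1592 in WT and 477 and 463 in KO2 (log2 change −2.28) and SEMA4G at 67.2 and 67.4 in WT and 0.73 and 0 in KO2 (at least 22.4-fold lower). HES4, HES1, NRP2, NRP1, SEMA3C and SEMA7A were picked after their values were seen. JAG1 had a log2 change of −3.31 without WT replicate 1 and −4.70 with WT replicate 2 left out. SHH lost the call without WT replicate 1 (2.01) or KO2 replicate 1 (2.15). SEMA3C lost the call without WT replicate 1 (0.88) or KO2 replicate 1 (1.42) and had a log2 change of 2.76 without WT replicate 2. SHH and SEMA3C lost their calls with only the 4 libraries fitted.

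Mitosis and G2/M genes had the largest share of members called lower of the 34 lists, and DNA replication genes the next largest. Of 34 tested mitosis and G2/M genes, 29 (85.3%) were called lower and 0 higher, beside 7.29% lower of all genes, with a median log2 change of −2.53. Of 34 tested DNA replication and S phase genes, 20 (58.8%) were called lower and 0 higher, with a median log2 change of −1.64, or −1.66 with floor genes set to their bounds. With only the 4 libraries fitted, 24 mitosis and G2/M genes and 17 DNA replication and S phase genes were called lower. CDK1, the kinase that starts mitosis, was at 1748 and 2153 in WT and 377 and 436 in KO2 (log2 change −2.25, SE 0.15, adjusted p = 4.1e-08), and its partner CCNB1, or cyclin B1, at 2712 and 3033 in WT and 495 and 415 in KO2 (log2 change −2.66, SE 0.17, adjusted p = 1.4e-08). FOXM1, a transcription factor of G2/M genes, was at 1841 and 2657 in WT and 398 and 344 in KO2 (log2 change −2.58, SE 0.17, adjusted p = 3.1e-08). MKI67, the proliferation antigen Ki-67, was at 4088 and 6581 in WT and 264 and 1105 in KO2 (log2 change −3.26, SE 0.52, adjusted p = 2.1e-04). The KO2 libraries lay below the WT libraries in each of these, though the 2 KO2 libraries were far apart for MKI67. Cytokinesis and spindle genes fell alike, with KIF23 at 2680.0 and 3677 in WT and 474 and 509 in KO2 (log2 change −2.67), AURKA at 1737 and 2089 in WT and 377 and 343 in KO2 (log2 change −2.40), AURKB at 365 and 519.5 in WT and 36.6 and 60.5 in KO2 (log2 change −3.18), and the kinetochore gene NUF2 at 243 and 309 in WT and 19 and 39.8 in KO2 (log2 change −3.27). TOP2A, the topoisomerase that separates sister chromosomes, was low in WT, with 22.3 and 99.5 in WT and 6.13 and 1.67 in KO2 (log2 change −3.47). CCNA2, or cyclin A2, was at 480.3 and 1278 in WT and 315 and 38.4 in KO2 (adjusted p = 0.161) and was not called. MKI67 had a log2 change of −2.23 without KO2 replicate 1 and −4.29 with KO2 replicate 2 left out. NUF2 lost the call without WT replicate 1 (−3.44) or WT replicate 2 (−3.10) or KO2 replicate 1 (−2.75). TOP2A had a log2 change of −4.53 without WT replicate 1, −2.42 with WT replicate 2 left out, −4.18 with KO2 replicate 1 left out and −2.76 with KO2 replicate 2 left out. TOP2A lost the call with only the 4 libraries fitted. KIF20A, at 28.8 and 16.8 in WT and 0 and 0 in KO2 (at least 7.6-fold lower), lost the call whichever of the 4 libraries was left out. TTK was at 119 and 38.8 in WT and 15.7 and 0 in KO2 (log2 change −4.08). The call of TTK was lost without WT replicate 1 (−3.28) or KO2 replicate 2 (−2.05), and with only the 4 libraries fitted.

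Among S phase genes, CCNE2, or cyclin E2, was at 109.5 and 133 in WT and 7.59 and 8.25 in KO2 (log2 change −3.77, SE 0.36, adjusted p = 1.2e-06), E2F8, an atypical E2F factor, at 215 and 373 in WT and 3.01 and 10.9 in KO2 (log2 change −5.36, SE 1.69, adjusted p = 0.0264), and RRM1, the large subunit of ribonucleotide reductase, at 98.8 and 125 in WT and 5.5 and 3.02 in KO2 (log2 change −4.45, SE 0.90, adjusted p = 0.00148). The helicase loader CDC6 was at 319 and 396 in WT and 63.3 and 55.9 in KO2 (log2 change −2.56), the helicase subunits MCM5 and MCM4 at 818 and 1410.4 in WT and 369 and 329.6 in KO2 (log2 change −1.62) and 2595 and 3047 in WT and 916 and 1530.0 in KO2 (log2 change −1.25), and the DNA polymerase POLE at 989.6 and 1994 in WT and 315 and 280.2 in KO2 (log2 change −2.24). All were lower in both KO2 libraries than in either WT library. CDK inhibitors and p53 targets went the other way, with 8 of 31 tested called higher and 1 lower. CDKN1C, the CDK inhibitor p57, was at 160.2 and 151 in WT and 636 and 747 in KO2 (log2 change 2.14, SE 0.29, adjusted p = 5.1e-05). MDM2, the ligase that limits p53, was at 522 and 506 in WT and 1288 and 1604 in KO2 (log2 change 1.48, SE 0.22, adjusted p = 9.5e-05), FAS, the death receptor, at 487 and 488 in WT and 1744 and 1715 in KO2 (log2 change 1.82, SE 0.12, adjusted p = 2.2e-08), and RRM2B, the p53-induced subunit of ribonucleotide reductase, at 1405 and 977 in WT and 4246 and 4554 in KO2 (log2 change 1.91, SE 0.14, adjusted p = 8.2e-08). CDKN1A, the inhibitor p21, was at 8098 and 7359 in WT and 9866 and 9379 in KO2 (log2 change 0.32, adjusted p = 0.0133). The division rate of the cells was not measured in these libraries. Of the cell cycle genes, CDK1, CCNB1, FOXM1, MKI67, KIF23, AURKA, AURKB, CDC6, MCM5, MCM4, POLE, MDM2 and CDKN1A were picked after their values were seen. Among p53 targets and CDK inhibitors, the number called higher was 5 with every library at the same total. E2F8 lost the call whichever of the 4 libraries was left out. MCM4 lost the call without KO2 replicate 1 (−0.88). E2F8 lost the call with a pseudocount of 0.5. TYMS was at 244 and 54.6 in WT and 42.3 and 0 in KO2 (log2 change −4.15). The call of TYMS was lost without WT replicate 1 (−3.08) or KO2 replicate 2 (−1.43), with no filter on low values and with only the 4 libraries fitted.

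Promoters of the mitosis genes called lower were searched for the letters through which the DREAM complex and NF-Y act on cell cycle genes. Of 29 such genes 24 had a RefSeq window of 250 bases before the start. The CHR motif TTTGAA, on either strand, was in 15 of the 24, beside 12.8% of tested genes with a window and 13.3% of all windows. The CCAAT box (CCAAT or ATTGG) was in 20 of the 24, beside 41.8% and 32%. Of the 4 uncalled members with a window, 1 held the CHR motif and 2 the CCAAT box. These motifs, and the 3 genes shown, were chosen after the values were seen. Windows of 3 of the genes, CCNB2 at chr15:59104896-59105145 (+ strand), PLK1 at chr16:23678639-23678888 (+ strand) and CDC20 at chr1:43358731-43358980 (+ strand), are given 5′ to 3′ with matches of both motifs in capitals. In CCNB2 and PLK1 the CHR motif begins at −29 from the start. CCNB2 was at 91.8 and 157 in WT and 18.3 and 24.7 in KO2 (log2 change −2.45), PLK1, a mitotic kinase, at 87.6 and 115 in WT and 16.1 and 26.6 in KO2 (log2 change −2.22), and CDC20, an activator of the anaphase-promoting complex, at 227 and 304 in WT and 71.7 and 101 in KO2 (log2 change −1.62).
CCNB2: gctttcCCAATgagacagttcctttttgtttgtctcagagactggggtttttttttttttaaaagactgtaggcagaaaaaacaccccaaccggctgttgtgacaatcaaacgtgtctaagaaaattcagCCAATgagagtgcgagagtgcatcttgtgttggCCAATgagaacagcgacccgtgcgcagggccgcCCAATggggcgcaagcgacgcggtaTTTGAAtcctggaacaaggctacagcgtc
PLK1: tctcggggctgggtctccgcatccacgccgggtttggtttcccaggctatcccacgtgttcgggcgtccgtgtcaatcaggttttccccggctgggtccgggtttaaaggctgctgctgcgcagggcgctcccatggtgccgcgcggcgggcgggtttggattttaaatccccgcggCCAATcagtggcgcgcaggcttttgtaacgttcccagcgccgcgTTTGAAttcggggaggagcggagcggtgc
CDC20: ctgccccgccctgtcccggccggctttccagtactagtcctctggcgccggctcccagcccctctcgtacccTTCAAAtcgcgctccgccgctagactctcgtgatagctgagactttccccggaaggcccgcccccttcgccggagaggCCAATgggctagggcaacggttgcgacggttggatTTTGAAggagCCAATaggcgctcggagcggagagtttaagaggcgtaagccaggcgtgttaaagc
CCNB2 lost the call without WT replicate 2 (−2.06) or KO2 replicate 1 (−2.24) or KO2 replicate 2 (−2.65). PLK1 lost the call without WT replicate 2 (−2.03) or KO2 replicate 1 (−1.88). CDC20 lost the call without WT replicate 2 (−1.41) or KO2 replicate 1 (−1.37).

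**Figure D4:**
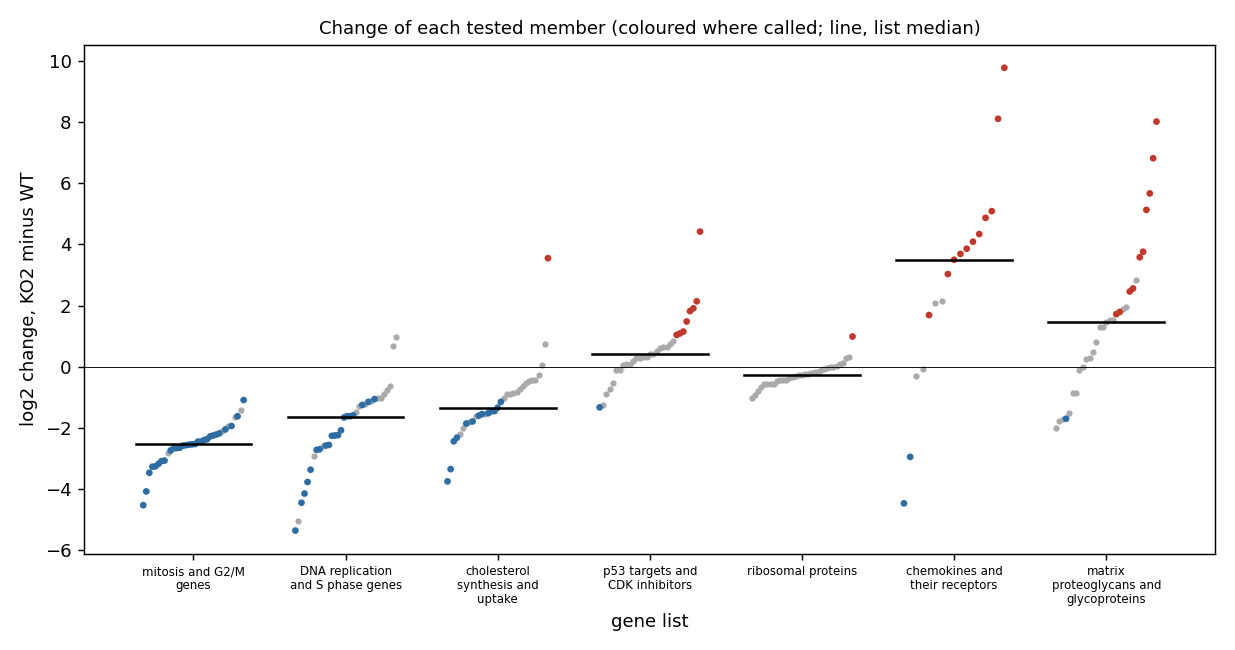
Each point is a tested member of 1 of 7 gene lists, in order of its log2 change of KO2 minus WT on the y axis, red or blue where called higher or lower and grey where not, and the black line is the list's median. Mitosis genes lie under 0 throughout with a median of −2.53, DNA replication genes have −1.64 and cholesterol genes −1.34, against 3.50 for chemokines, 1.46 for proteoglycans and −0.27 for ribosomal proteins.

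Genes of cholesterol synthesis and uptake fell, in 13 of 33 tested members (39.4%) with 1 higher and a median log2 change of −1.34, or −1.15 with floor genes set to their bounds. HMGCS1, an early enzyme of the pathway, was at 6139.6 and 5903 in WT and 1183 and 1218 in KO2 (log2 change −2.32, SE 0.08, adjusted p = 1.6e-11). MVK, or mevalonate kinase, was at 666 and 823 in WT and 126 and 146 in KO2 (log2 change −2.44, SE 0.23, adjusted p = 1.4e-06), FDPS, which makes farnesyl diphosphate, at 5008 and 5033 in WT and 1425 and 1481 in KO2 (log2 change −1.79, SE 0.11, adjusted p = 1.6e-08), and EBP, a later isomerase, at 237 and 217 in WT and 17.6 and 25.8 in KO2 (log2 change −3.35, SE 0.42, adjusted p = 2.3e-05). The falls included early and late steps of synthesis. ABCG1, a cholesterol exporter, was the member called higher, at a low level, with 0 and 1.27 in WT and 14.5 and 19.1 in KO2 (at least 5.59-fold higher). A short sterol element (TCACNCCAC, either strand) was in 0 of the 9 promoter windows of the 13 genes called lower and in 1.25% of tested genes with a window. HMGCS1 and FDPS were picked after their values were seen.

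Genes of proximal tubule function split in nearly equal parts. Of 27 tested uptake and transport genes of 50 listed, 6 rose and 7 fell, and of 24 tested enzymes 4 rose and 3 fell. FOLR1, the folate receptor, was at 1486 and 1639 in WT and 40.7 and 61.5 in KO2 (log2 change −4.93, SE 0.44, adjusted p = 6.9e-07). SLC17A1 and SLC17A3, organic anion and urate transporters, were at 192 and 208 in WT and 24 and 16.8 in KO2 (log2 change −3.25) and 254 and 309 in WT and 24.8 and 33.5 in KO2 (log2 change −3.24), and ABCB1, the drug exporter P-glycoprotein, at 2146 and 2767 in WT and 379.9 and 331 in KO2 (log2 change −2.78). PDZK1, the scaffold that holds apical transporters, was at 3256 and 3181 in WT and 329.8 and 389 in KO2 (log2 change −3.16, SE 0.30, adjusted p = 1.3e-06). Against these, the dicarboxylate carrier SLC13A3 was at 20.6 and 2.99 in WT and 186 and 189 in KO2 (log2 change 4.35, SE 0.75, adjusted p = 3.8e-04), the amino acid carrier SLC7A7 at 23.9 and 15.6 in WT and 312 and 171 in KO2 (log2 change 3.51, SE 0.44, adjusted p = 2.2e-05), and the cation extruder SLC47A1 at 1.06 and 3.56 in WT and 54.7 and 43.5 in KO2 (log2 change 4.02). CUBN, the uptake receptor cubilin, and ANPEP, a brush border peptidase, were at 34.6 and 13.9 in WT and 214 and 123 in KO2 and at 29.7 and 28.6 in WT and 252 and 93.8 in KO2, both called and both uneven. CA12, a carbonic anhydrase, was at 18.9 and 9.06 in WT and 814 and 569 in KO2 (log2 change 5.59, SE 0.31, adjusted p = 4.5e-09). Among the enzymes, members called higher numbered 2 without WT replicate 1 or WT replicate 2 or KO2 replicate 2 and 1 without KO2 replicate 1 or with only the 4 libraries fitted. SLC17A1, SLC17A3 and ABCB1 were picked after their values were seen. CUBN lost the call whichever of the 4 libraries was left out. SLC13A3 had a log2 change of 5.57 without WT replicate 1 and 3.13 with WT replicate 2 left out. ANPEP lost the call without WT replicate 1 (2.39) or WT replicate 2 (2.34) or KO2 replicate 1 (1.65) and had a log2 change of 3.07 without KO2 replicate 2. CUBN lost the call with every library at the same total or with no filter on low values or with a length and GC trend removed, and ANPEP with only the 4 libraries fitted.

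Of 29 tested nephron lineage transcription factors, 3 (10.3%) were called higher and 4 (13.8%) lower, beside 9.02% and 7.29% of all genes. SALL1, a factor of nephron progenitors, was at 1774 and 2555 in WT and 4987 and 4467 in KO2 (log2 change 1.15, SE 0.16, adjusted p = 5.1e-05), and EYA1, its partner in the early kidney, at 0 and 0 in WT and 11.7 and 15.5 in KO2 (adjusted p = 5.5e-04, at least 4.53-fold higher). EMX1 was among those called lower, with 64.8 and 68.5 in WT and 5.34 and 2.26 in KO2 (log2 change −3.90, adjusted p = 0.00128). So was TFAP2B, with 62.7 and 80.2 in WT and 9.2 and 15.1 in KO2 (log2 change −2.49, adjusted p = 0.0113). PAX2 was at 834 and 937 in WT and 744 and 779 in KO2 (log2 change −0.22). Markers of tubular injury and progenitors split, with 6 of 19 tested higher and 4 lower. LCN2, or NGAL, a secreted marker of kidney injury, was at 0 and 0.94 in WT and 123 and 112 in KO2 (adjusted p = 6.5e-07, at least 39.2-fold higher), whereas HAVCR1, or KIM-1, the other widely used marker, was at 1169 and 1869 in WT and 45.7 and 61.3 in KO2 (log2 change −4.78, SE 0.82, adjusted p = 3.8e-04). The progenitor surface markers were also divided, with PROM1, or CD133, at 1741 and 1085 in WT and 6219 and 7230.0 in KO2 (log2 change 2.29, SE 0.16, adjusted p = 5.4e-08) and CD24 at 1618 and 3887 in WT and 101 and 224 in KO2 (log2 change −4.05, SE 0.48, adjusted p = 1.2e-05). PAX2 and PROM1 were picked after their values were seen. Among the transcription factors, lower calls came to 2 without WT replicate 2. SALL1 lost the call without WT replicate 1 (0.89), and TFAP2B without WT replicate 2 (−2.31) or KO2 replicate 1 (−2.16). CD24 had a log2 change of −4.68 without WT replicate 1 and −3.41 with WT replicate 2 left out. SALL1 lost the call with every library at the same total.

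Some core metabolic and housekeeping lists held few calls beside 9.02% of all genes higher and 7.29% lower, and others did not. Fatty acid oxidation and respiratory chain genes had 1 called higher of 38 tested (2.63%) and 0 lower. The unfolded protein response had 1 (3.33%) and 0 of 30, and ribosomal proteins 1 (3.03%) and 0 of 33. Their medians, in that order, were −0.16, −0.06 and −0.27. HOX cluster genes had 1 higher and 1 lower of 28 (3.57% each). Leaving out 1 library gave 0 to 1 higher and 0 to 1 lower in the first list, 0 to 3 higher and 0 to 2 lower in the second, 0 to 2 higher and 0 lower in the ribosomal proteins and 0 to 2 higher and 1 to 2 lower in the HOX genes. In glycolysis and hypoxia 4 rose and 4 fell of 39, with 7 lower at the same total. PGAM1 rose from 43.81 and 26.55 in WT to 263 and 219 in KO2 (log2 change 2.78). ADM rose from 9.4 and 11.2 in WT to 73.2 and 44.8 in KO2 (log2 change 2.37). ADM lost the call without KO2 replicate 1 (2.02). CA12, given above, was another member of this list that rose (log2 change 5.59). HK2, a hexokinase, fell from 652 and 773 in WT to 179 and 190.1 in KO2 (log2 change −1.94, SE 0.15, adjusted p = 1.1e-07). SLC2A1, the glucose carrier GLUT1, fell from 13028 and 14335 in WT to 5838 and 5338 in KO2 (log2 change −1.29, SE 0.08, adjusted p = 1.4e-08). Some glycolytic genes with near-identical pseudogenes, such as GAPDH at 8414 and 1441 in WT and 1644 and 967 in KO2, were uneven between replicates and are uncertain. Of 35 tested NRF2 antioxidant genes 4 rose and 1 fell, or 4 to 6 higher and 0 to 1 lower with 1 library left out, with the cystine carrier SLC7A11 at 1399 and 682 in WT and 3854 and 4321 in KO2 (log2 change 2.06, SE 0.22, adjusted p = 4.2e-06) and the thioredoxin reductase TXNRD1 at 5216 and 7524 in WT and 16504 and 14982 in KO2 (log2 change 1.33, SE 0.12, adjusted p = 1.2e-06). Among contractile actin and YAP-TEAD genes 2 rose and 4 fell of 33, but 5 rose and 4 fell without WT replicate 1, and 1 rose and 2 fell with only the 4 libraries fitted. ANKRD1, a YAP target, was at 1784 and 949.5 in WT and 124 and 147 in KO2 (log2 change −3.26, SE 0.21, adjusted p = 2.0e-08). HK2, SLC2A1 and GAPDH were picked after their values were seen. Glycolysis and hypoxia genes had 10.3% called higher and 10.3% lower, NRF2 genes 11.4% and 2.86%, and contractile and YAP-TEAD genes 6.06% and 12.1%.

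No autosome held all or most of the called genes. Because KO2 is 1 clone, the median change was computed for each of the 22 autosomes, as a description of position. The medians ran from −0.13 on chromosome 19 (995 genes tested) to 0.13 on chromosome 13 (223 genes), and the values of the 2 KO2 libraries against the WT mean were −0.10 and −0.17 for the first and 0.11 and 0.11 for the second. Chromosome 4 held the largest share of genes called higher, 14.1% of 526, and chromosome 19 the smallest, 4.82%.

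The KO2 clone also differed from the other SETD2 KO clone, grown in the same serum. Of 14585 genes, 655 (4.49%) were called higher and 361 (2.48%) lower in KO2 than in KO1. COL6A3, high in KO2, was at 90.4 and 98.6 in KO1 (log2 difference 6.06, SE 0.23, adjusted p = 8.0e-10), and THY1, at 203 and 138 in KO1, differed by 2.75 (adjusted p = 1.2e-04). FOLR1, which fell in KO2, was at 0 and 0 in KO1, and PDZK1 at 36.7 and 42.6, so both were lower still there (FOLR1 at least 17-fold, PDZK1 by a log2 difference of 3.15). LGR5 was detected in KO2 and was at 0 and 0 in KO1 (at least 15.8-fold higher in KO2). In the other direction, IL1B was at 29431 and 28069 in KO1 against 3949 and 2701 in KO2 (log2 difference −3.14, adjusted p = 0.00169), CSF3 at 842 and 912 (difference −2.92), GDF15 at 46059 and 40428 (difference −2.25) and CA12 at 8084 and 8348 (difference −3.59). IL1B and CSF3 were thus less high in KO2 than in KO1, and COL6A3 and THY1 higher. The number of genes higher in KO2 than in KO1 depended on single libraries, with 1206 without KO1 replicate 1 and 385 without KO2 replicate 2.

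Of the genes furthest apart between the clones, several were present in WT and KO2 and at 0 in both KO1 libraries. ITGA6, the hemidesmosome integrin chain, was at 1125 and 1170.0 in WT, 331 and 342 in KO2 and 0 and 0 in KO1. ROR1, a receptor of WNT5A, was at 259 and 273 in WT, 242 and 230.1 in KO2 and 0 and 0 in KO1, and RCBTB1 at 110.3 and 143 in WT, 211 and 282 in KO2 and 0 and 0 in KO1, and neither of these was called against WT. CCNA2 was at 480.3 and 1278 in WT, 315 and 38.4 in KO2 and 0 and 0 in KO1. ZNF469, a gene known from the cornea, was on in KO2 alone of these groups, with 0 and 0 in WT, 138 and 184 in KO2 and 0 and 0 in KO1. Others were higher in KO1. IL13RA2, a decoy receptor, was at 0 and 0 in WT, 0 and 0 in KO2 and 95.2 and 106 in KO1, and CA8 at 0 and 0 in WT, 0 and 7.96 in KO2 and 258 and 129.6 in KO1. CP, or ceruloplasmin, the copper carrier of plasma, was at 5.03 and 1.41 in WT, 21.2 and 25.7 in KO2 and 734 and 1045 in KO1. NELFE, at 91.9 and 80.1 in WT, 0 and 5.33 in KO2 and 109 and 485 in KO1, and GZF1, at 56 and 24.6 in WT, 1.15 and 0 in KO2 and 17.6 and 186 in KO1, were uneven in KO1. Against the floor, ITGA6 was at least 112-fold higher in KO2 than in KO1, ROR1 at least 78.7-fold, RCBTB1 at least 82.3-fold, CCNA2 at least 58.9-fold and ZNF469 at least 53.7-fold, and IL13RA2 was at least 33.5-fold lower. The log2 difference was −5.94 for CA8, −5.17 for CP and −6.52 for NELFE, and the adjusted p of the 10 genes ran from 1.9e-13 for ITGA6 to 0.0444 for GZF1. The call was lost without KO2 replicate 1 for CCNA2, NELFE (−5.19) and GZF1, without KO1 replicate 2 for NELFE (−5.45) and GZF1, and without KO2 replicate 2 for GZF1. Without KO2 replicate 1 the log2 difference of CA8 was −4.36 and without KO2 replicate 2 it was −7.52, and for NELFE it was −7.60 without KO1 replicate 1 and −7.86 without KO2 replicate 2. Between the KO1 libraries 98 genes were at the floor in 1 and at 100 or over in the other, against 46 between the KO2 libraries, and the part of these uneven values in the differences was not tested.

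**Figure D5:**
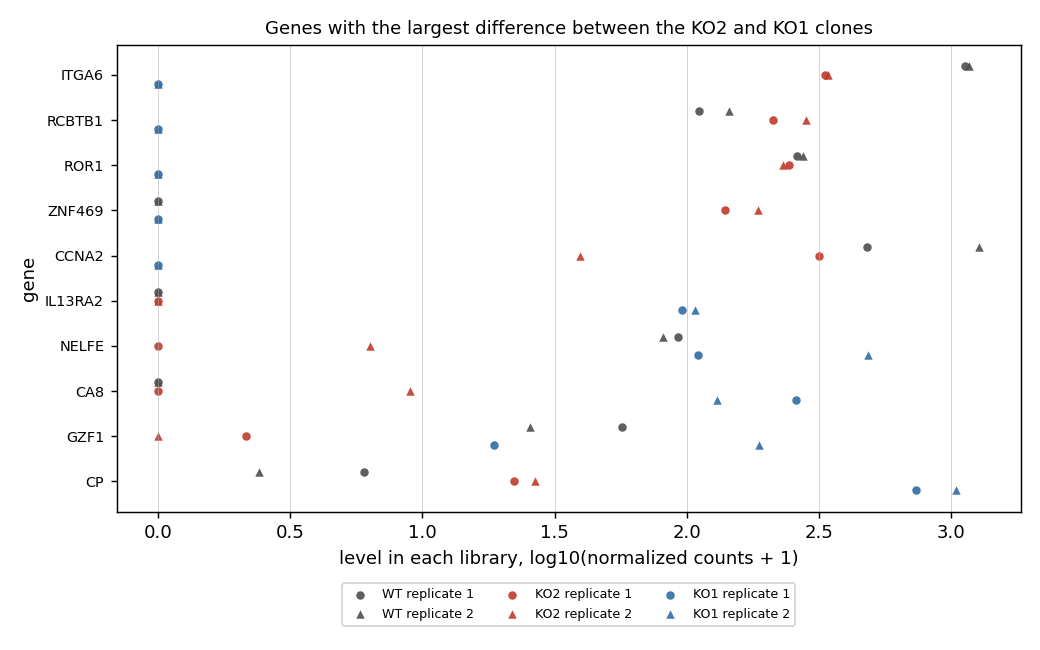
Each row is 1 of the 10 genes with the largest difference between the KO2 and KO1 clones and each point a library, at its level as log10(normalized counts + 1), with circles for replicate 1, triangles for replicate 2, grey for WT, red for KO2 and blue for KO1. ITGA6, RCBTB1, ROR1, ZNF469 and CCNA2 have both KO1 libraries at 0, and IL13RA2 is at 0 in WT and KO2.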

How the data were processed

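RNA-seq libraries of RPTEC were made with a stranded mRNA kit. Per the labels and the study's methods, the authors quantified reads with Salmon (1.9.0) against Ensembl 94 transcripts (hg38) and used DESeq2 (1.26.0). The deposited values are log2 values of a variance-stabilizing kind that share one lowest value, which was taken as 0 reads, and the authors' exact settings are not given in the sources used here. They were inverted to normalized counts, which do not give whole reads, so no count test was run. Precision is limited by 2 libraries per group. All 22 libraries in 11 groups (11 residual degrees of freedom) were fitted with limma (3.58.1, R 4.3.3) on log2(normalized counts + 1), with a mean trend and Benjamini-Hochberg adjustment over the 14585 of 36859 genes that reached 10 normalized counts in 2 or more libraries. In simulated data 130 of 200 genes changed by 2 on the log2 scale were called, and 2 unchanged genes. The simulated spread followed a smooth trend on level, the same in every group. Genes as uneven as FN1 in WT were not represented, so these counts do not give the rate of false calls in the libraries. The genes named by rule were SETD2, the 12 largest rises and falls, up to 4 called members of each list by size of change, markers the study used, and the 5 genes furthest apart in each direction between the clones, where protein-coding, not overlapping between groups and at 100 normalized counts or over. Not all of them are described in the text. Other genes are marked as picked later. Some genes are not reported here. The samples and gene lists were chosen with earlier results of these data known. Tables were handled in Python (3.11.15) with pandas (2.3.3). Gene names and positions came from GENCODE 44, which matched 33878 genes. The alternatives were other pseudocounts, filters, scalings, libraries, a replicate block and a length and GC trend.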

Additional observations from a re-analysis of the deposited data

Results flagged for a closer look

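Of the 155 genes named by rule, 38 differed between the KO2 and KO1 clones in the limma test of that difference (adjusted p under 0.05 and a log2 difference over 1), 20 of them higher and 18 lower in KO2. The rule itself took 5 genes in each direction by this same test, so the count is not independent evidence. Over all genes tested, 4.49% were called higher and 2.48% lower in KO2 than in KO1. They are given as values, with log2 differences of KO2 minus KO1 except where a clone was at the floor, and the causes were not tested.

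KO2 exceeded KO1 in PDPN (1.75), with KO1 at 1516 and 1279, in THY1 (2.75), COL6A3 (6.06), TIMP3 (2.71) and CD24 (2.96). ITGA6 was at least 112-fold and MMP9 at least 2.06-fold higher. The direction was the reverse for DCN (−1.24), with KO1 at 234809 and 221606.

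KO2 was lower than KO1 in IL1B (−3.14), IL1A (−1.01), CSF3 (−2.92), C3 (−1.40), CD74 (−1.55), IFI27 (−2.64) and GDF15 (−2.25), and so was IL13RA2, by at least 33.5-fold. CXCL12, CCL20, IL24, LCN2 and OAS2 did not pass the test, with log2 differences of −0.28 for CXCL12, −0.39 for CCL20, 0.16 for IL24, 0.35 for LCN2 and −0.54 for OAS2. KO2 was also lower in WNT2 (−1.91), with KO1 at 11257 and 10348, and in ADM (−2.57), which encodes the vasodilator adrenomedullin and was at 9.4 and 11.2 in WT, 73.2 and 44.8 in KO2 and 272 and 436 in KO1. Further genes lower in KO2 were CA12 (−3.59), CA8 (−5.94), CP (−5.17), NELFE (−6.52), PHYHD1 (−2.61), EBP (−1.93) and GZF1 (at least 34-fold).

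KO2 was higher than KO1 in KIT (2.86), JAG1 (2.01), PDZK1 (3.15), MVK (1.30) and ESRP2 (1.09). Against a KO1 clone at the floor, LGR5 was at least 15.8-fold, FOLR1 at least 17-fold, ROR1 at least 78.7-fold, RCBTB1 at least 82.3-fold, ZNF469 at least 53.7-fold, CCNA2 at least 58.9-fold, ID1 at least 1.5-fold and TOP2A at least 1.3-fold higher.

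Without KO1 replicate 1 the calls of 6 of the 38 were lost, for MMP9, PHYHD1, ESRP2, IL1A, TOP2A and MVK. Without KO1 replicate 2 the calls of 6 of the 38 were lost, for MMP9, TIMP3, TOP2A, ADM, NELFE and GZF1. Without KO2 replicate 1 the calls of 9 of the 38 were lost, for MMP9, PHYHD1, ESRP2, TIMP3, TOP2A, EBP, CCNA2, NELFE and GZF1. Without KO2 replicate 2 the calls of 8 of the 38 were lost, for MMP9, ESRP2, TIMP3, IL1A, KIT, IFI27, ADM and GZF1. IL13RA2 did not pass the filter on low values without either KO1 library and was not tested there. It passed the filter only through the KO1 libraries, where it was high, so it could come out lower in KO2 but not higher.

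Among calls that held, the log2 difference was 2.20 for KIT, 2.26 for CD24 and −7.60 for NELFE without KO1 replicate 1, the log2 difference was 1.70 for ESRP2, 3.52 for KIT and 3.67 for CD24 without KO1 replicate 2, the log2 difference was −4.36 for CA8 without KO2 replicate 1, the log2 difference was −7.86 for NELFE and −7.52 for CA8 without KO2 replicate 2.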

How the results depend on the processing

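No called gene among the 155 named by rule changed direction under any alternative that was run. On the deposited log2 scale, which compresses low and middle levels, 71 genes were higher and 23 lower in KO2 than in WT, 3 higher and 20 lower than in KO1, and 119 of the 155 named genes lost the call. With a mean of at least 50 normalized counts 855 genes were higher than in WT, among 9819 tested. The other scalings, pseudocounts and filters and the length and GC trend lost the call of 0 to 9 named genes each, and with every library at the same total 2139 of the 2378 called genes (89.9%) were called again.

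With only the 4 libraries of a comparison in the fit, 100 genes were higher and 155 lower in KO2 than in KO1, and 1735 of the 2378 genes called against WT (73%) were called again, while 19 of 150 named genes lost the call. At an unadjusted p, 1143 genes were higher and 713 lower in KO2 than in KO1. Leaving out 1 library at a time gave 1041 to 1291 genes higher and 862 to 985 lower in KO2 than in WT, and 385 to 1206 higher and 250 to 524 lower than in KO1, and took the call from 17 to 23 named genes. The median log2 change of chromosome 19 was −0.35 at the same total and −0.18 to −0.09 without 1 library. That of chromosome 13 was −0.07 and 0.01 to 0.15, so its sign depended on the scaling.

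Same-numbered replicates of KO2 and WT did not deviate together (r = −0.016 over 9819 genes), and none of the 55 pairs of groups passed 0.1 (−0.143 to 0.095), so the numbers were not taken to pair the samples. With the replicate block over all libraries, 1300 genes were higher and 1056 lower than in WT, and 635 higher and 357 lower than in KO1. With the block and only the 4 libraries, the counts were 859 and 717 against WT and 80 and 146 against KO1, and 24 of 150 named genes lost the call.

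The depth limits calls at low levels, since a gene at the floor allows only a bound. KO2 is 1 clone and WT was not cloned, so clone and genotype cannot be told apart. The WT libraries were uneven for FN1, COL4A1, COL1A1 and other genes, and the cause was not tested.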

Other observations

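Beside the genes named by rule, ZNF711, which encodes a zinc finger protein that binds chromatin, was at 2.15 and 1.87 in WT, 19.7 and 20.1 in KO2 and 0 and 0 in KO1 normalized counts. The KO2 libraries were above both WT libraries and the KO1 libraries were below them, all at low levels.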
